A study of Arabidopsis thaliana with 8 samples.

Results

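The type-A *ARABIDOPSIS RESPONSE REGULATORS* (type-A *ARRs*) were followed in seedlings that lack a functional *UBP5*, a gene for a ubiquitin-specific protease that removes ubiquitin from histone H2A. The family was taken as 10 genes, *ARR3* to *ARR9* and *ARR15* to *ARR17*, found by their gene identifiers among the 37336 genes counted in every library. RNA from whole *Arabidopsis thaliana* seedlings, 12 days after germination, was compared between the Columbia wild type (Col-0, n = 4) and *ubp5* (n = 4). The *ubp5* plants were homozygous for a CRISPR/Cas9 deletion that takes out parts of the DUSP and UBP domains, made with a pair of guides in the Col-0 background, and they stand for 1 mutant line. Both genotypes were grown on Murashige and Skoog agar under long days, and the samples were described by the study as biological replicates. Neither genotype was given cytokinin, so the values are levels under ordinary growth.

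Cytokinins are plant hormones that promote shoot growth and cell division. They are sensed by membrane histidine kinases, which pass a phosphoryl group through phosphotransfer proteins to nuclear response regulators. Type-B ARRs are transcription factors that activate cytokinin-responsive genes, and the type-A *ARRs* are among the first genes they switch on. Type-A ARRs carry the phosphoryl-receiving domain without a DNA-binding domain and restrain the pathway that induces them, so their transcripts are widely used as a readout of cytokinin signalling. The difference in architecture is visible in the gene models, as the coding length of the 10 type-A genes ran from 465 to 972 bases (median 621), against 1233 to 2073 bases (median 1791) in the 11 type-B genes.

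Coordinates are those of the TAIR10.1 assembly as annotated by RefSeq, in which all 10 identifiers were matched. The genes form 5 pairs of close relatives by coding sequence. *ARR3* (AT1G59940) lies on the reverse strand of chromosome 1 at 22065617 to 22067233, and *ARR4* (AT1G10470), 83.2% identical to it over the aligned bases, on the reverse strand of chromosome 1 at 3441988 to 3444360. *ARR5* (AT3G48100; chromosome 3, 17758427 to 17760950, reverse strand) and *ARR6* (AT5G62920; chromosome 5, 25252007 to 25254318, reverse strand) were 81.4% identical. *ARR7* (AT1G19050; chromosome 1, 6577833 to 6579314, reverse strand) and *ARR15* (AT1G74890; chromosome 1, 28131447 to 28133025, reverse strand) were 79.0% identical. *ARR8* (AT2G41310; chromosome 2, 17221840 to 17224880, forward strand) and *ARR9* (AT3G57040; chromosome 3, 21109059 to 21111567, forward strand) were 81.3% identical. *ARR16* (AT2G40670; chromosome 2, 16969673 to 16972113, forward strand) and *ARR17* (AT3G56380; chromosome 3, 20905264 to 20906397, forward strand) were 84.2% identical. Each gene has 5 exons, except *ARR8* and *ARR17* with 6. As an exact match, none of the 246 windows of 55 bases (the read length) in the last 300 transcript bases of each member occurred more than once in the genome. Reads with mismatches, across exon junctions or from further upstream were not examined. *ARR6*, *ARR8* and *ARR9* each overlap 1 gene on the opposite strand, and the authors counted reads on the sense strand only. *ARR8* and *ARR16* lie on the chromosome of *UBP5*, 143.9 kb and 108.5 kb from it.

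Type-B ARRs bind a short core, AGATT, and its palindromic relative AGATCT. These letters were searched on both strands of the 250 bases before each RefSeq gene start, with overlapping matches counted. AGATT was found before 7 of the 10 members and before 63.7% of all 27443 genes, so its presence does not set the family apart. AGATCT was found before 1 member, *ARR7*, and before 5.98% of all genes. The telobox AACCCTA and the repeat GAGAGA were searched because the study found such elements over-represented at UBP5 target genes. The study used a wider window that also took in bases after the transcription start, which the 250 bases here do not cover. AACCCTA was found before 0 of 10 members (6.56% of all genes) and GAGAGA before 4 of 10 (20.6% of all genes), namely *ARR3*, *ARR5*, *ARR7* and *ARR9*. Windows of 30 bases around a choice of the cores are shown for *ARR7*, its relative *ARR15*, *ARR6*, *ARR8* and *ARR9*. The matched letters are in capitals and each gene's own strand is read 5′ to 3′. For AGATT, 1 window per gene is printed, although *ARR6* and *ARR7* each held 3 matches and *ARR9* held 2. The AGATT matches of *ARR3* and *ARR16* are not shown. In *ARR8* the capitals hold the core on the opposite strand, read as AATCT.
ARR7 AGATCT, chr1:6579413-6579442, reverse strand: cagaccaaacaaAGATCTttgaaatcttaa
ARR7 AGATT, chr1:6579378-6579407, reverse strand: attcggtgcccaaAGATTttgacctttgaa
ARR15 AGATT, chr1:28133040-28133069, reverse strand: tgggtccctaaaaAGATTatgaccgtgaag
ARR6 AGATT, chr5:25254333-25254362, reverse strand: aaatataaaataaAGATTttgaaagcaaat
ARR9 AGATT, chr3:21109010-21109039, forward strand: tctgtatctctcaAGATTttggcgggtccc
ARR8 AGATT, chr2:17221606-17221635, forward strand: ctcgttattatttAATCTcttttaaaacat
*ARR7* held 3 AGATT matches, 1 AGATCT match and 3 overlapping GAGAGA matches in these 250 bases, and *ARR4* and *ARR17* held none of the searched motifs. A match describes the letters in the window and not a bound site.

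Library depth was 1440510 to 2997743 unique counts, and 20509 to 21580 genes had at least 1 count. The lowest total was that of *ubp5* replicate 3. The first principal component (44.4% of the variance) separated the genotypes and the second (15.6%) set Col-0 replicate 1 apart. *UBP5* itself had 47, 57, 32 and 51 counts in Col-0 and 14, 13, 6 and 16 in *ubp5*, and its level in CPM (counts scaled to a library of 1000000) fell from 17.4 ± 4.33 to 5.89 ± 1.53 (SD, n = 4 each). Its log2 fold change was −1.53 ± 0.25 (SE; edgeR adjusted p = 0.00236). Because reads came from transcript 3′ ends, this value counts the RNA that remained and does not measure the deleted segment. Of the markers for the tissues of a seedling, green leaf genes and root genes were present in every library. The summed level of 5 green leaf markers was 22410 to 31130 CPM in Col-0 and 17640 to 19200 CPM in *ubp5*, with 4 of 5 lower past the adjusted p threshold. The summed level of 12 root markers was 1289 to 1728 CPM in Col-0 and 1670 to 2157 CPM in *ubp5*, with 1 of the 9 tested lower (*PHO1*) and 0 higher. Most of this sum was *PYK10*, a root β-glucosidase gene, at 1139 to 1575 CPM in Col-0 and 1567 to 2041 CPM in *ubp5*, and the other 11 root markers together had 100.8 to 152.4 CPM in Col-0 and 103.5 to 115.3 CPM in *ubp5*. Of the shoot meristem markers, *WUS* and *CLV3* had 0 counts in all 8 libraries and the summed level of the list stayed at 0.752 to 2.55 CPM. In whole seedlings, fewer cells of a type and less RNA per cell cannot be told apart, and the part of tissue composition in the values below was not tested.

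No type-A *ARR* was differentially expressed in *ubp5* at the thresholds of the study, which are an adjusted p below 0.05 together with an absolute log2 fold change of 1 or more. Of the 10 members, 6 (*ARR4* to *ARR9*) had enough counts to be tested. Of these, 0 were called in either direction by edgeR's quasi-likelihood test, against 4.84% of the 15649 genes tested (2.93% lower and 1.91% higher). With the fold-change threshold removed the count by edgeR was still 0, against 10.9% of all tested genes (6.34% lower and 4.59% higher). By DESeq2 it was also 0, and the share of all genes by DESeq2 is not given here. At an unadjusted p under 0.05 there were 2 members, *ARR4* and *ARR8*, against 25.7% of all tested genes. The log2 fold changes were negative in 4 members (*ARR4*, *ARR5*, *ARR6*, *ARR7*) and positive in 2 (*ARR8*, *ARR9*). Their median was −0.26, beside a median of −0.01 over all tested genes. The CPM of all 10 members together was 140.4, 124.6, 116.6 and 204 in the Col-0 replicates 1 to 4 and 139.8, 117.3, 127.5 and 122.6 in *ubp5*. Thus 7 of the 8 libraries held a similar total and Col-0 replicate 4 stood above them.

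**Figure D1:**
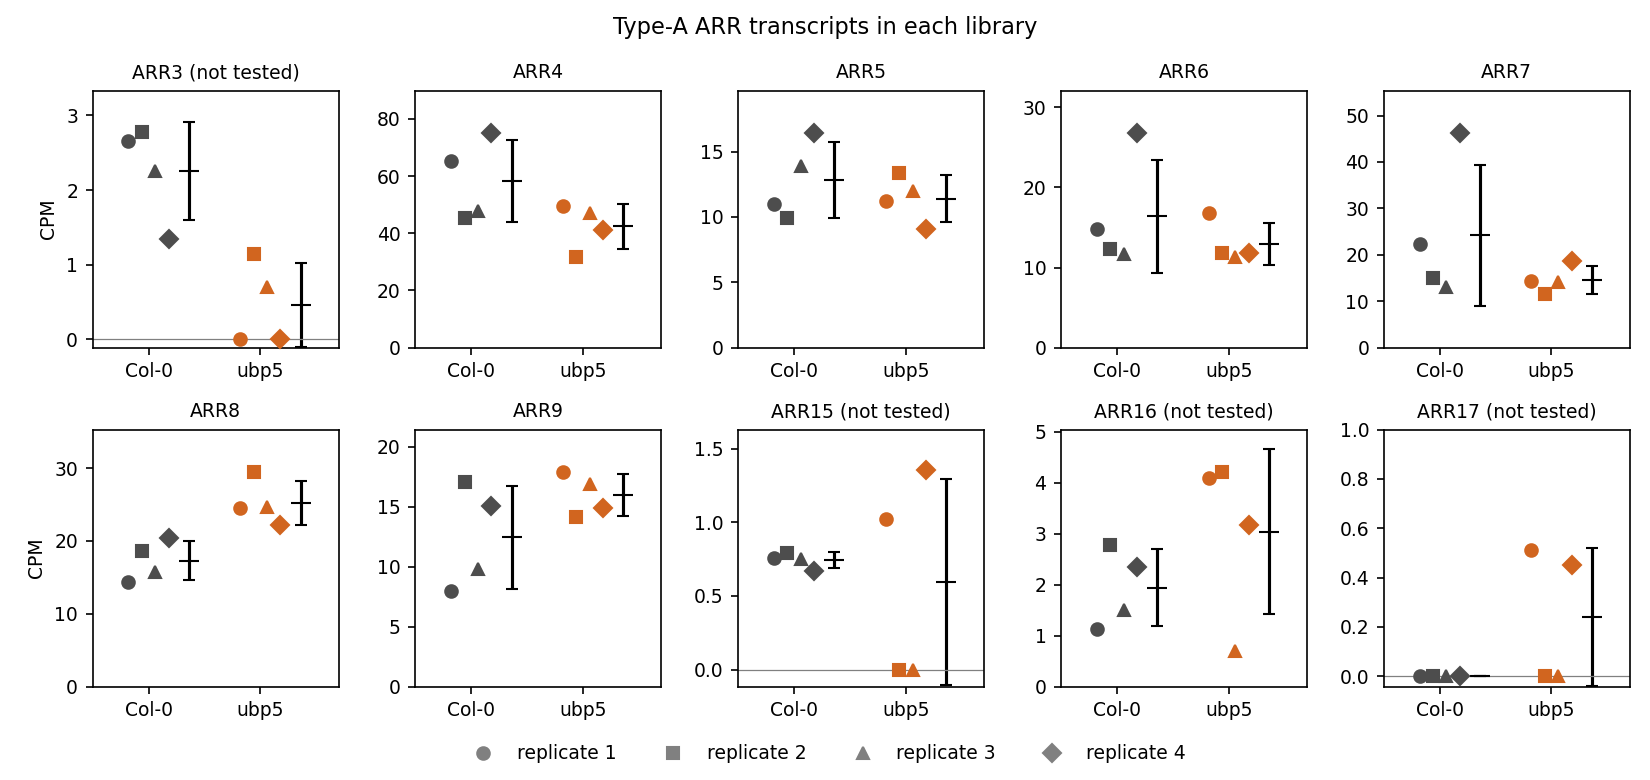
CPM of each type-A *ARR* in the 4 Col-0 libraries (grey) and the 4 *ubp5* libraries (orange), 1 panel per gene with its own axis; symbols mark replicate numbers and the black bars the mean ± SD. *ARR8* is higher in every *ubp5* library than in any Col-0 library, *ARR3* is lower in every *ubp5* library, and in *ARR6* and *ARR7* Col-0 replicate 4 (26.8 and 46.2 CPM) lies far above the other libraries.

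*ARR8*, which acts as a negative regulator in the cytokinin pathway, came closest to the threshold. It had 38, 47, 42 and 61 counts in Col-0, or 14.4, 18.6, 15.8 and 20.4 CPM. It had 48, 77, 35 and 49 counts in *ubp5*, or 24.5, 29.4, 24.6 and 22.2 CPM. All 4 mutant libraries were above all 4 wild-type libraries, a separation found in this direction for 7.87% of the tested genes. Col-0 averaged 17.3 ± 2.71 CPM (SD, n = 4) and *ubp5* 25.2 ± 3.04 CPM, which is 1.46-fold higher. The log2 fold change was 0.54 ± 0.16 (SE), with a 95% interval of 0.19 to 0.89 (edgeR adjusted p = 0.05002), which did not pass the threshold. An exact permutation test of its CPM over the libraries gave a two-sided p of 0.0286, the smallest that 4 against 4 allows. Any gene without overlap between the groups receives this unadjusted value, so it adds nothing to the separation already given.

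The side of the threshold on which *ARR8* fell was decided by small choices. Its edgeR adjusted p was 0.0481 with size factors of the DESeq2 type (RLE) computed in edgeR, 0.0487 with organelle genes left out and 0.0422 without Col-0 replicate 4. It was 0.132 in DESeq2, and over all 14 alternatives the adjusted p ran from 0.0422 to 0.146 and the log2 fold change from 0.45 to 0.63. The direction was therefore the same throughout, while the side of the adjusted p threshold was not.

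*ARR9*, the nearest relative of *ARR8*, had 21, 43, 26 and 45 counts in Col-0 (7.97, 17.1, 9.78 and 15.0 CPM). It had 35, 37, 24 and 33 counts in *ubp5* (17.9, 14.1, 16.9 and 14.9 CPM). The mutant libraries lay close together and inside or just above the range of the wild type, which was itself wide. Col-0 averaged 12.5 ± 4.29 CPM and *ubp5* 16.0 ± 1.72 CPM, and the log2 fold change was 0.34 ± 0.24 (SE; 95% interval −0.17 to 0.85; edgeR adjusted p = 0.399). Over the 8 libraries *ARR8* and *ARR9* varied together (r = 0.74 on the log2 scale, and 0.64 within genotypes).

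*ARR4*, which binds phytochrome B and with *ARR3* affects the period of the circadian clock, had the highest counts of the family. It had 172, 114, 127 and 224 counts in Col-0 (65.3, 45.2, 47.8 and 74.9 CPM). It had 97, 83, 67 and 91 counts in *ubp5* (49.5, 31.7, 47.2 and 41.2 CPM). The groups overlapped, since *ubp5* replicates 1 and 3 reached the level of Col-0 replicates 2 and 3. Col-0 averaged 58.3 ± 14.2 CPM and *ubp5* 42.4 ± 7.94 CPM, and the log2 fold change was −0.48 ± 0.19 (SE; 95% interval −0.88 to −0.07; edgeR adjusted p = 0.129).

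*ARR7*, which is expressed in the shoot meristem and is repressed there by the homeodomain protein WUSCHEL, had 59, 38, 35 and 138 counts in Col-0 (22.4, 15.1, 13.2 and 46.2 CPM). It had 28, 30, 20 and 41 counts in *ubp5* (14.3, 11.5, 14.1 and 18.6 CPM). The mutant libraries fell within or just below the range of Col-0 replicates 1 to 3, and Col-0 replicate 4 was alone at the top. The log2 fold change of −0.75 ± 0.36 (SE; 95% interval −1.53 to 0.03; edgeR adjusted p = 0.215) was the lowest of the tested members. Without Col-0 replicate 4 it was −0.21 ± 0.24, with an adjusted p of 0.640.

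*ARR5* and *ARR6*, whose promoters are used in cytokinin reporters, overlapped between genotypes. *ARR5* had 29, 25, 37 and 49 counts in Col-0 (11.0, 9.92, 13.9 and 16.4 CPM) and 22, 35, 17 and 20 in *ubp5* (11.2, 13.4, 12.0 and 9.05 CPM). Its groups overlapped over most of their range, and its log2 fold change was −0.17 ± 0.22 (SE; 95% interval −0.64 to 0.30; edgeR adjusted p = 0.672). *ARR6* had 39, 31, 31 and 80 counts in Col-0 (14.8, 12.3, 11.7 and 26.8 CPM) and 33, 31, 16 and 26 in *ubp5* (16.8, 11.8, 11.3 and 11.8 CPM). Its log2 fold change was −0.35 ± 0.28 (SE; 95% interval −0.95 to 0.25; edgeR adjusted p = 0.464), and without Col-0 replicate 4 it was −0.0003 ± 0.21. The remaining wild-type libraries and the mutant then had nearly the same fitted level, with an SE that leaves room for a difference in either direction.

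**Figure D2:**
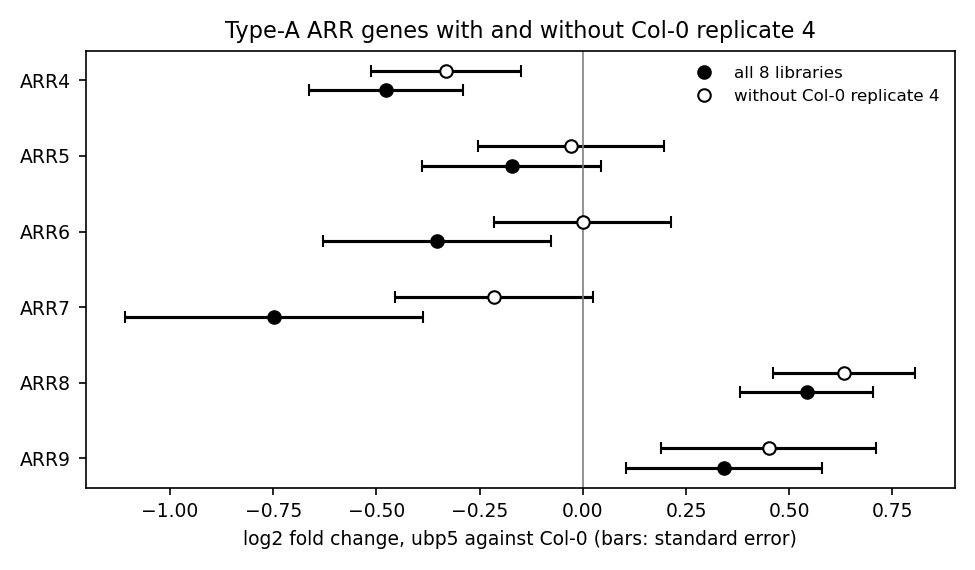
Log2 fold change of the 6 tested type-A *ARRs* in *ubp5* against Col-0 (x axis; bars, standard error) from all 8 libraries (filled) and without Col-0 replicate 4 (open). *ARR7* moves from −0.75 to −0.21 and *ARR6* from −0.35 to −0.0003, while *ARR8* moves from 0.54 to 0.63.

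The other 4 members had too few counts for the test. *ARR3* had 7, 7, 6 and 4 counts in Col-0 and 0, 3, 1 and 0 in *ubp5*, or 2.66, 2.78, 2.26 and 1.34 CPM against 0, 1.15, 0.704 and 0 CPM. Every mutant library was below every wild-type library, as for 9.37% of the tested genes, but the totals were only 24 and 4 counts. From these totals, at the depth of each group, *ARR3* was 4.56-fold lower in *ubp5*, with a 95% interval of 1.57 to 18.1 that covers counting error only. With the filter on low counts removed, its log2 fold change was −2.10 ± 0.73 (SE; edgeR adjusted p = 0.0841), and DESeq2 gave −2.22 ± 1.00 (adjusted p = 0.184). *ARR16*, which is expressed in roots and in the stomatal lineage, had 3, 7, 4 and 7 counts in Col-0 and 8, 11, 1 and 7 in *ubp5*, and the ratio of its levels was 1.69 with a counting interval of 0.922 to 3.15. *ARR15*, which acts with *ARR7* in the shoot meristem, had 2 counts in each Col-0 library and 2, 0, 0 and 3 in *ubp5*. *ARR17* had 0 counts in Col-0 and 1, 0, 0 and 1 in *ubp5*. For *ARR15* and *ARR17* no difference could be read at this depth.

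Within the family the members fell into sets that varied together across libraries. *ARR6* and *ARR7* (r = 0.86), *ARR4* and *ARR7* (r = 0.83) and *ARR4* and *ARR6* (r = 0.77) rose and fell in the same libraries, and within genotypes these values were 0.84, 0.78 and 0.75. *ARR5* followed *ARR4* and *ARR7* less closely (r = 0.34 and 0.37). *ARR4* and *ARR8* ran in opposite directions over the 8 libraries (r = −0.60), and within genotypes r was −0.16. These are descriptions of 8 libraries that share depth and growth, and Col-0 replicate 4 had the highest value of *ARR4*, *ARR5*, *ARR6* and *ARR7*. Among all other tested genes, the 5 whose profile was most like the mean profile of the 6 tested members were *PRXQ* (AT3G26060; r = 0.97), a chloroplast peroxiredoxin, *RPL12-A* (AT3G27830; r = 0.96), a plastid ribosomal protein, *GOX2* (AT3G14415; r = 0.94), a photorespiratory glycolate oxidase, *emb1138* (AT5G26742; r = 0.92) and AT5G38890 (r = 0.91). None of these 5 passed the edgeR test between the genotypes, with adjusted p of 0.801 to 0.967. They were picked as the highest r among the 15649 tested genes over 8 libraries, so high values come with the selection. The mean profile joins members with log2 fold changes of both signs, so little difference between genotypes in the 5 is no separate result.

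The rest of the cytokinin pathway was read from lists of 70 other genes, of which 38 were tested. At an adjusted p under 0.05, 4 were lower and 2 were higher in *ubp5*, 15.8% of those tested against the 10.9% of all genes given above, and 0 reached a log2 fold change of 1. By DESeq2, for which the share of all genes is not given here, 2 of them passed the adjusted p threshold, *UGT73C5* and *CRF6*. The median log2 fold change was −0.11.

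Among the receptors, 0 of 3 passed the test. *AHK4*, the receptor also known as CRE1 or WOL, had 8.35, 7.94, 10.2 and 12.0 CPM in Col-0 and 7.14, 7.26, 5.63 and 7.24 CPM in *ubp5*. Its mutant libraries were all below its wild-type libraries, as for 9.37% of all tested genes. Its log2 fold change was −0.48 ± 0.23 (SE; edgeR adjusted p = 0.204). *AHK2* and *AHK3* had log2 fold changes of 0.25 ± 0.16 and −0.18 ± 0.12 (adjusted p = 0.359 and 0.369).

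Of the 5 tested phosphotransfer proteins, 1 was lower. *AHP1*, which carries the phosphoryl group from receptors to regulators, had 32.6, 26.6, 21.4 and 31.4 CPM in Col-0 and 19.4, 15.7, 21.8 and 12.7 CPM in *ubp5*. It fell by 0.72 ± 0.19 on the log2 scale (SE; edgeR adjusted p = 0.0344), although *ubp5* replicate 3 was within the wild-type range. Of the 6 tested type-B regulators, which activate the type-A genes, 1 was lower. *ARR2* had 18.6, 16.7, 17.7 and 18.7 CPM in Col-0 and 10.7, 7.26, 13.4 and 12.7 CPM in *ubp5*, with no overlap, as for 9.37% of all tested genes in this direction. It fell by 0.74 ± 0.20 on the log2 scale (SE; edgeR adjusted p = 0.0322). The type-C regulators *ARR22* and *ARR24* had 0 counts in every library.

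Of the 6 tested cytokinin synthesis genes, 1 was lower. *LOG7*, which releases active cytokinin from its nucleotide form, had 11.4, 11.9, 11.7 and 11.4 CPM in Col-0 and 6.63, 5.73, 6.34 and 9.05 CPM in *ubp5*. It fell by 0.73 ± 0.21 on the log2 scale (SE; edgeR adjusted p = 0.0430), without overlap, as for 9.37% of all tested genes in this direction. All 6 log2 fold changes were negative, with a median of −0.31, beside 51.6% negative values over all tested genes. Of the 6 tested genes for breakdown and conjugation, 1 was lower and 1 was higher. *UGT85A1*, which glucosylates zeatin, fell by 0.86 ± 0.26 on the log2 scale (SE; edgeR adjusted p = 0.0492), from 30.7 ± 11.4 to 16.8 ± 1.77 CPM, with Col-0 replicate 2 (15.5 CPM) inside the mutant range. *UGT73C5*, best known for glucosylating brassinosteroids, had 27.7, 21.8, 19.9 and 24.7 CPM in Col-0 and 36.2, 47.7, 34.5 and 36.2 CPM in *ubp5*. Its log2 fold change was 0.72 ± 0.15 (SE; edgeR adjusted p = 0.0103). It stayed under an adjusted p of 0.05 in every alternative fit, but in the main fit it did not pass the stricter threshold of 0.01.

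Of the 2 tested cytokinin response factors, 1 was higher. *CRF6*, a transcription factor linked to stress and leaf senescence, had 12.9, 10.7, 10.5 and 9.03 CPM in Col-0 and 12.8, 19.1, 19.7 and 24.4 CPM in *ubp5*. Its log2 fold change was 0.82 ± 0.21 (SE; edgeR adjusted p = 0.0278), and *ubp5* replicate 1 was within the wild-type range. In the remaining lists 0 genes passed the test. The smallest p was that of *PUP14*, a cytokinin importer, in the transport list, at −0.38 ± 0.14 (adjusted p = 0.106), *CGA1*, a GATA factor of chloroplast development, in the list of other response genes, at −0.63 ± 0.27 (adjusted p = 0.166), and *KMD4* among the F-box protein genes, at 0.29 ± 0.22 (adjusted p = 0.458), all from edgeR. Apart from *UGT73C5*, which pathway genes passed the adjusted p threshold depended on single libraries. Without Col-0 replicate 4 or without *ubp5* replicate 2, *UGT73C5* was the 1 gene that passed, and leaving out any other library gave 2 to 5 genes. The share of all tested genes that passed in these smaller fits is not given here. The lower counts therefore cannot be read as particular to the cytokinin genes.

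**Figure D3:**
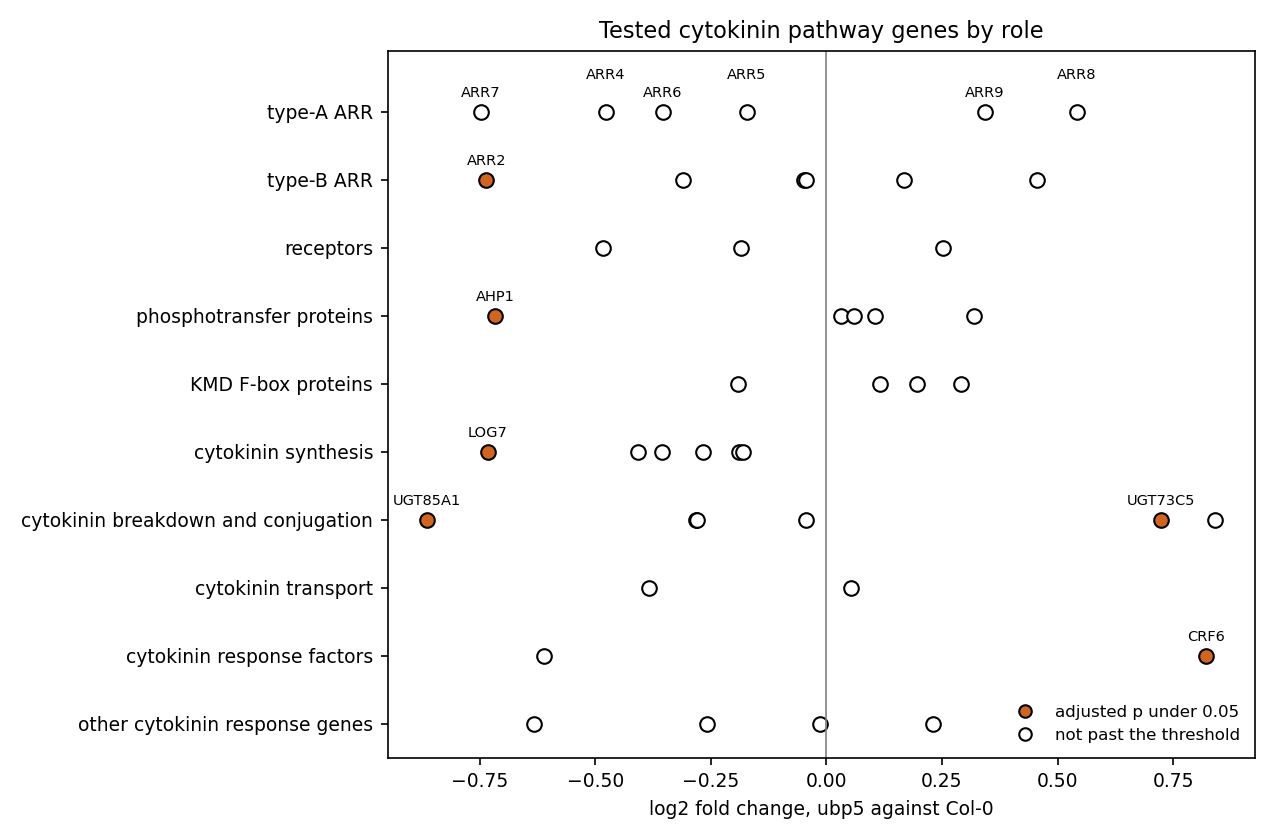
Log2 fold change in *ubp5* against Col-0 (x axis) of every tested gene of the cytokinin lists, 1 row per role; orange points passed an adjusted p of 0.05 in edgeR and open points did not. The 6 type-A *ARRs* are all open, and the named points in the other rows are 4 genes that were lower (*ARR2*, *AHP1*, *LOG7*, *UGT85A1*) and 2 that were higher (*UGT73C5*, *CRF6*).

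The Col-0 library with the most *ARR7* was also the one with the least *KMD* transcript. The *KMD* genes encode F-box proteins that direct the breakdown of type-B ARRs, and they were set beside the type-A genes after their values had been seen. *KMD1* had 186.3, 283.8, 281.8 and 116.4 CPM in Col-0 and 264.8, 264.4, 207.8 and 202.3 CPM in *ubp5*. *KMD3* had 16.7, 44.1, 41.0 and 11.0 CPM in Col-0 and 37.8, 39.0, 21.8 and 27.6 CPM in *ubp5*. *KMD4* had 105.5, 152.4, 162.1 and 63.5 CPM in Col-0 and 156.1, 140.6, 145.8 and 148.0 CPM in *ubp5*. For all 3 genes Col-0 replicate 4 was the lowest of the 8 libraries and Col-0 replicate 1 the next lowest, while *ARR7* was highest in replicate 4 and next highest in replicate 1. Over the 8 libraries Pearson's r of *ARR7* was −0.93 with *KMD1*, −0.87 with *KMD3* and −0.94 with *KMD4*, with Spearman's rho of −0.64, −0.64 and −0.50. Without Col-0 replicate 4 alone Pearson's r was −0.76, −0.72 and −0.69, and without Col-0 replicates 1 and 4 it was −0.56, −0.37 and 0.14. Those libraries hold the lowest *KMD* values, so a weaker r was likely from that choice alone. What the relation rested on was not tested. *KMD2* followed *ARR7* less closely (r = −0.41).

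**Figure D4:**
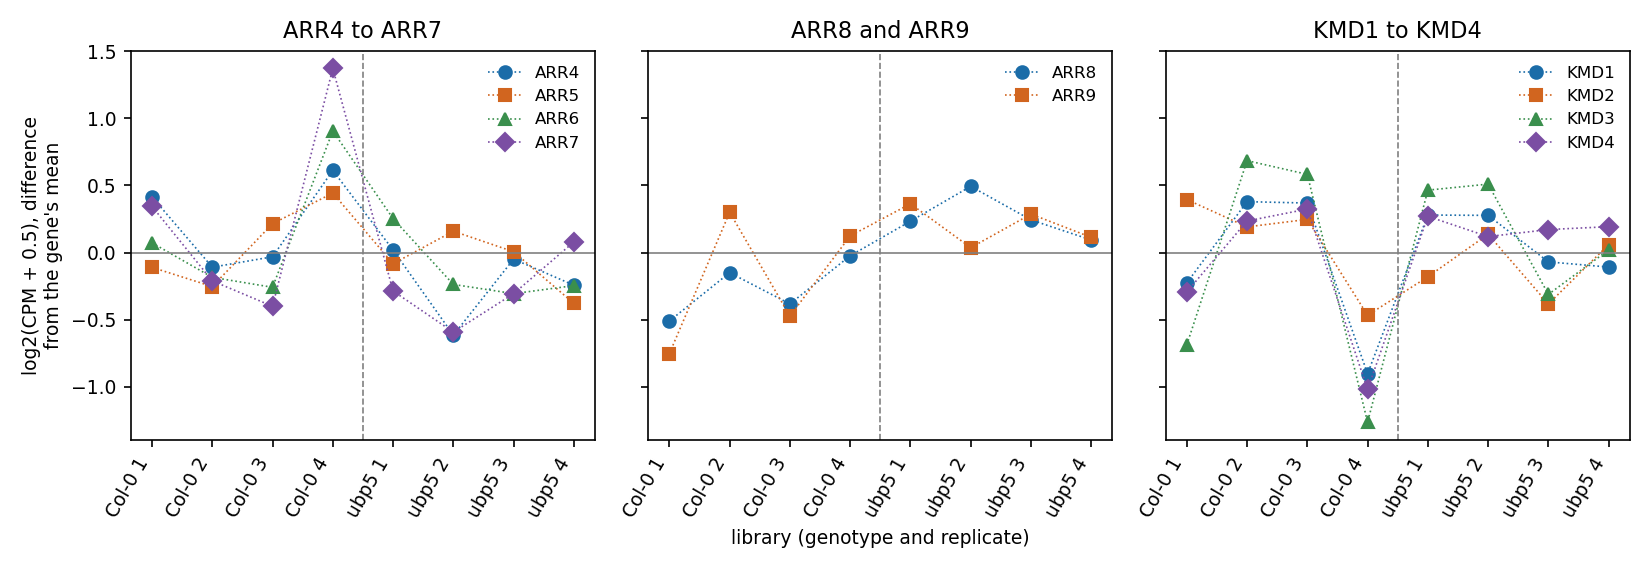
Difference of each gene's log2(CPM + 0.5) from its own mean over the 8 libraries (y axis), by library (x axis; Col-0 left and *ubp5* right of the dashed line), for *ARR4* to *ARR7*, for *ARR8* and *ARR9* and for *KMD1* to *KMD4*. In Col-0 replicate 4 *ARR4* to *ARR7* are at their highest and *KMD1* to *KMD4* at their lowest, whereas *ARR8* lies above its mean in the *ubp5* libraries and below it in the Col-0 libraries.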

How the data were processed

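RNA from 8 seedling samples was sequenced from transcript 3′ ends. The deposited values are whole-number counts of unique molecular identifiers per gene, 1 file per library. According to the study's methods, the authors mapped 55-base reads with STAR 2.7.8a to TAIR10 with the Araport11 annotation, kept uniquely mapped reads on the sense strand and removed duplicates. No authors' fold changes were used. Groups came from the sample labels. Counts were tested in R 4.3.3 with edgeR 4.0.16 (TMM scaling, filterByExpr, quasi-likelihood F-test, limma 3.58.1), with Benjamini-Hochberg adjustment over 15649 genes. The study used DESeq2, which (version 1.42.0) served as an alternative. Called genes had an adjusted p below 0.05 together with an absolute log2 fold change of 1 or more. CPM values are counts divided by the library's total over tested genes times its TMM factor, and scaled to 1000000. Correlations used log2(CPM + 0.5).

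The 10 members and the pathway lists were chosen with earlier results of these data known. All members were named, with *UBP5*, the receptors, every pathway gene past the adjusted p threshold, otherwise the gene with the smallest p in its list, and the 5 genes of most similar profile. The *KMD* values were added after they had been seen. Gene models, promoters and sequences came from RefSeq (TAIR10.1), whereas the counts were made on TAIR10. Alternatives were other size factors, other filters, organelle genes left out, a replicate block, a stricter threshold and each library left out in turn. The edgeR step was tested on simulated data. Counting intervals have a level of 95% and cover counting error only.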

Additional observations from a re-analysis of the deposited data

Results flagged for a closer look

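In *ubp5*, the level of *ARR6* in replicate 1 (16.84 CPM) stood apart from the other 3 libraries, which lay between 11.3 and 11.8 CPM. The gap was 0.897 of the group's range, above Dixon's 95% critical value for 4 samples. Of 19 groups of values examined in this way, 1 was set apart, and chance alone sets apart about 1 in 20.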

How the results depend on the processing

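No direction of a tested type-A *ARR* changed under any of the alternatives, and 0 members were called under any of them. Of 84 values of single members, 81 stayed on the same side of the threshold and 3, all of *ARR8*, crossed it. The number of members that were higher at an adjusted p under 0.05 was 0, but 1 with RLE size factors in edgeR and 1 with organelle genes left out. This number ran from 0 to 1 when single libraries were left out (1 without Col-0 replicate 4). The other members' log2 fold changes with single libraries left out ran from −0.58 to −0.33 in *ARR4*, −0.28 to −0.03 in *ARR5*, −0.50 to −0.0003 in *ARR6*, −0.95 to −0.21 in *ARR7* and 0.18 to 0.52 in *ARR9*. The value nearest 0 came without Col-0 replicate 4 in *ARR4* to *ARR7*. The number of other cytokinin genes past the adjusted p threshold was 6, but 2 in DESeq2 and 1 with the replicate number as a block, and it ran from 1 to 5 when single libraries were left out. The share of all tested genes under each of these settings is not given here, and the cause was not tested. Under the replicate block *ARR8* had a log2 fold change of 0.54 (edgeR adjusted p = 0.0905). Same-numbered libraries did not deviate together (r = −0.09, −0.12, 0.01 and 0.03 for numbers 1 to 4), so the numbers were not taken as pairs. Depth limits *ARR3*, *ARR15*, *ARR16* and *ARR17*, which had at most 27 counts over the 4 libraries of a genotype, and the p-values measure the spread between 4 samples of 1 mutant line.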
